A study of Mus musculus with 10 samples.

Results

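The 9 genes described here are the myeloid transcription factor genes Spi1, Cebpa, Cebpb, Cebpe, Gfi1 and Irf8 and the colony-stimulating factor (CSF) receptor genes Csf1r, Csf2ra and Csf3r. They were chosen by name, as probes that carry one of these gene names, out of 32236 genes tested. The arrays hold a probe under the listed name for 8 of the 9 genes, and the ninth, Spi1, was reached through its accession because the array design uses its older symbol Sfpi1. In all, 11 of 55681 probes belong to the 9 genes, and Csf1r alone has 3. All 9 genes passed the filter on dim probes.

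The arrays measured RNA of graft-derived cells sorted from the midbrain of mice treated with MPTP, a toxin of dopamine neurons. Lineage-negative haematopoietic stem and progenitor cells (HSPCs) from donor bone marrow had been grafted over the substantia nigra of 1 side 3 days after the last MPTP injection, and the sort followed 1 week after the graft. Hybrids are red and yellow cells (RFP+YFP+), that is graft cells fused with recipient cells, and unfused cells are red only (RFP+). The 5 groups of 2 replicates each were FoxA2-Cre hybrids, FoxA2-Cre unfused cells, R26Y hybrids, GFAP-Cre hybrids, and pooled unfused cells, which come from both R26Y and GFAP-Cre recipients. In R26Y recipients, which carry a YFP reporter that Cre switches on, the grafted cells were HSPCsCre/RFP, so fusion with any reporter-bearing cell could give YFP. GFAP-Cre and FoxA2-Cre recipients received HSPCsR26Y, and there YFP marks fusion only with a cell in which the Gfap or Foxa2 promoter had driven Cre, so that a red-only cell may still have fused with a recipient cell of another kind. Every replicate pools 2 mice, and every group, unfused cells included, comes from MPTP-treated mice. The 4 FoxA2-Cre arrays lie on 1 slide and the other 6 on another, so that recipient set and slide cannot be told apart. Each difference between hybrids and unfused cells was taken within a slide. The SE and p of a gene, however, rest on its spread in all 5 groups, on both slides. An SE given below thus does not measure the spread of the arrays it stands beside.

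Spi1 (the protein PU.1) is the transcription factor that opens the myeloid programme in haematopoietic progenitors, and Cebpa is required for the step from multipotent progenitors to granulocyte and monocyte precursors. Cebpe drives the late steps of granulocyte maturation, including secondary granule genes, and Gfi1 is a repressor that favours the granulocytic branch, while Irf8 favours the monocytic branch and is kept in microglia. Csf3r binds G-CSF and serves neutrophil production, Csf1r binds M-CSF and IL-34 and is needed by monocytes, macrophages and microglia, and Csf2ra is the alpha chain of the GM-CSF receptor.

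None of the 9 genes passed the test between hybrids and unfused cells in any comparison. Irf8 was below both pooled unfused arrays on all 4 hybrid arrays of the R26Y and GFAP-Cre slide, as 5.11% of all genes were. Gfi1 was detected on 4 of 10 arrays. In FoxA2-Cre hybrids the granulocyte genes Mpo and S100a9 fell, calls that were lost in 10 and 15 of 23 alternatives. The differences of the granulocytic regulators Cebpe and Csf3r did not pass there, and their sign turned under some alternatives (Cebpe -0.045 without FoxA2-Cre unfused replicate 1, Csf3r -0.42 to -0.22 with 3 other normalizations). The 3 probes of Csf1r disagreed with each other.

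Detection differed between the slides. The share of spots well above background was 34.6% and 19.8% in FoxA2-Cre hybrids and 49.2% and 34.8% in FoxA2-Cre unfused cells, against 64.3% to 86.7% on the 6 arrays of the other slide. Spearman's rho between replicates across genes was 0.671 in FoxA2-Cre hybrids and 0.719 in FoxA2-Cre unfused cells, and 0.678 in R26Y hybrids, 0.904 in GFAP-Cre hybrids and 0.951 in pooled unfused cells. Of 4 leukocyte genes, Ptprc was well above background on 10 of 10 arrays, Laptm5 on 8, and Cd52 and Coro1a on 6 each. On the FoxA2-Cre hybrid arrays 2 and 1 of the 4 were well above background, and on the FoxA2-Cre unfused arrays 3 and 1. Each array of the other slide had 3 or 4. The origin of the cells was not tested by these genes. Levels below are log2 of the background-subtracted signal relative to the 75th percentile of probes detected on all arrays, so that 0 is that percentile. Levels of different probes are not comparable with each other. In sorted cells, fewer cells of a type and less RNA per cell cannot be told apart.

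Each gene was read by probes of 60 bases, and what those bases are bears on what the values mean, most of all for Csf3r. The Csf3r probe (build mm9, chr4:125721478-125721537) shares at least 15 bases with 15 probes of other genes and at least 20 bases with 3 of them. Its longest shared run covers its last 30 bases, printed here in capitals because the whole run is shared, and these letters are of the kind that opens B1 repeats, a family of short interspersed elements spread through mouse transcripts. Among all probes, 48.7% share 15 bases and 14.6% share 20 bases with a probe of another gene. Of the other members, only the Cebpa probe shares as many as 15 bases with probes of other genes, 3 in number. The first 30 bases of the probes for Cebpe (chr14:55329200-55329259), Gfi1 (chr5:108145719-108145778) and Irf8 (chr8:123280324-123280383), and the whole probe for Spi1, are printed beside it in lower case as examples without such runs.
Csf3r probe, bases 31 to 60: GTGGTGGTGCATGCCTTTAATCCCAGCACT
Cebpe probe, bases 1 to 30: attgggaaggtcgggaccaaatgattctgt
Gfi1 probe, bases 1 to 30: gtgagggttgtagacgttcctaaatcttct
Irf8 probe, bases 1 to 30: aacagacagggtcgacagagtgtgtgatac
Spi1 probe, bases 1 to 60: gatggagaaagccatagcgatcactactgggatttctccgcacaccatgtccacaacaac
The Spi1 probe maps to both ends of chr2:90939665-90953452, a span far longer than the probe, so it crosses exon junctions. The Cebpa probe lies at chr7:35906517-35906576, the Cebpb probe at chr2:167515828-167515887 and the Csf2ra probe at chr19:61300336-61300395. The array files name the gene of each probe but not the exon or untranslated region it lies in.

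Of the shared regulators, Spi1 stood at -4.61 and -3.63 on the FoxA2-Cre hybrid arrays and at -2.72 and -3.45 on the FoxA2-Cre unfused arrays, without overlap, although the higher hybrid array was not well above background. On the other slide Spi1 was at -4.34 and -5.33 in R26Y hybrids and at -4.05 and -4.16 in GFAP-Cre hybrids, against -4.00 and -4.31 in pooled unfused cells. R26Y hybrids thus lay below both pooled unfused arrays and GFAP-Cre hybrids lay among them. The fitted differences were -1.03 ± 0.61 for FoxA2-Cre hybrids, -0.68 ± 0.61 for R26Y hybrids and 0.054 ± 0.61 for GFAP-Cre hybrids (log2, SE), with limma adjusted p of 0.651, 1.00 and 1.00.

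Cebpb, a factor of inflammatory and emergency myelopoiesis, had the widest spread of the 9 genes. Its level was -6.45 and 2.81 on the FoxA2-Cre hybrid arrays, against 3.51 and 2.14 in FoxA2-Cre unfused cells. One hybrid array was thus at the level of the unfused arrays, and the other was not well above background. On the other slide all 6 arrays were low, at -5.87 and -3.54 in R26Y hybrids, -3.87 and -4.83 in GFAP-Cre hybrids, and -4.50 and -5.70 in pooled unfused cells. The FoxA2-Cre difference was -4.64 ± 2.52 (log2, SE), limma adjusted p = 0.631, and it rests on 1 array: it was -9.27 with an adjusted p of 0.0233 without FoxA2-Cre hybrid replicate 2, and -0.016 without FoxA2-Cre hybrid replicate 1. Such single-array gaps of at least 5 log2 units occurred in 4.03% of genes on that slide, and Cebpb was the single member among them.

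Cebpa was at -1.84 and -3.99 in FoxA2-Cre hybrids, where the lower array was not well above background, and at -3.37 and 1.13 in FoxA2-Cre unfused cells. One unfused array stood above all others, and the groups overlapped. The remaining levels were -3.28 and -3.10 in R26Y hybrids, -3.29 and -1.94 in GFAP-Cre hybrids, and -2.81 and -3.33 in pooled unfused cells, again with overlap.

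**Figure D1:**
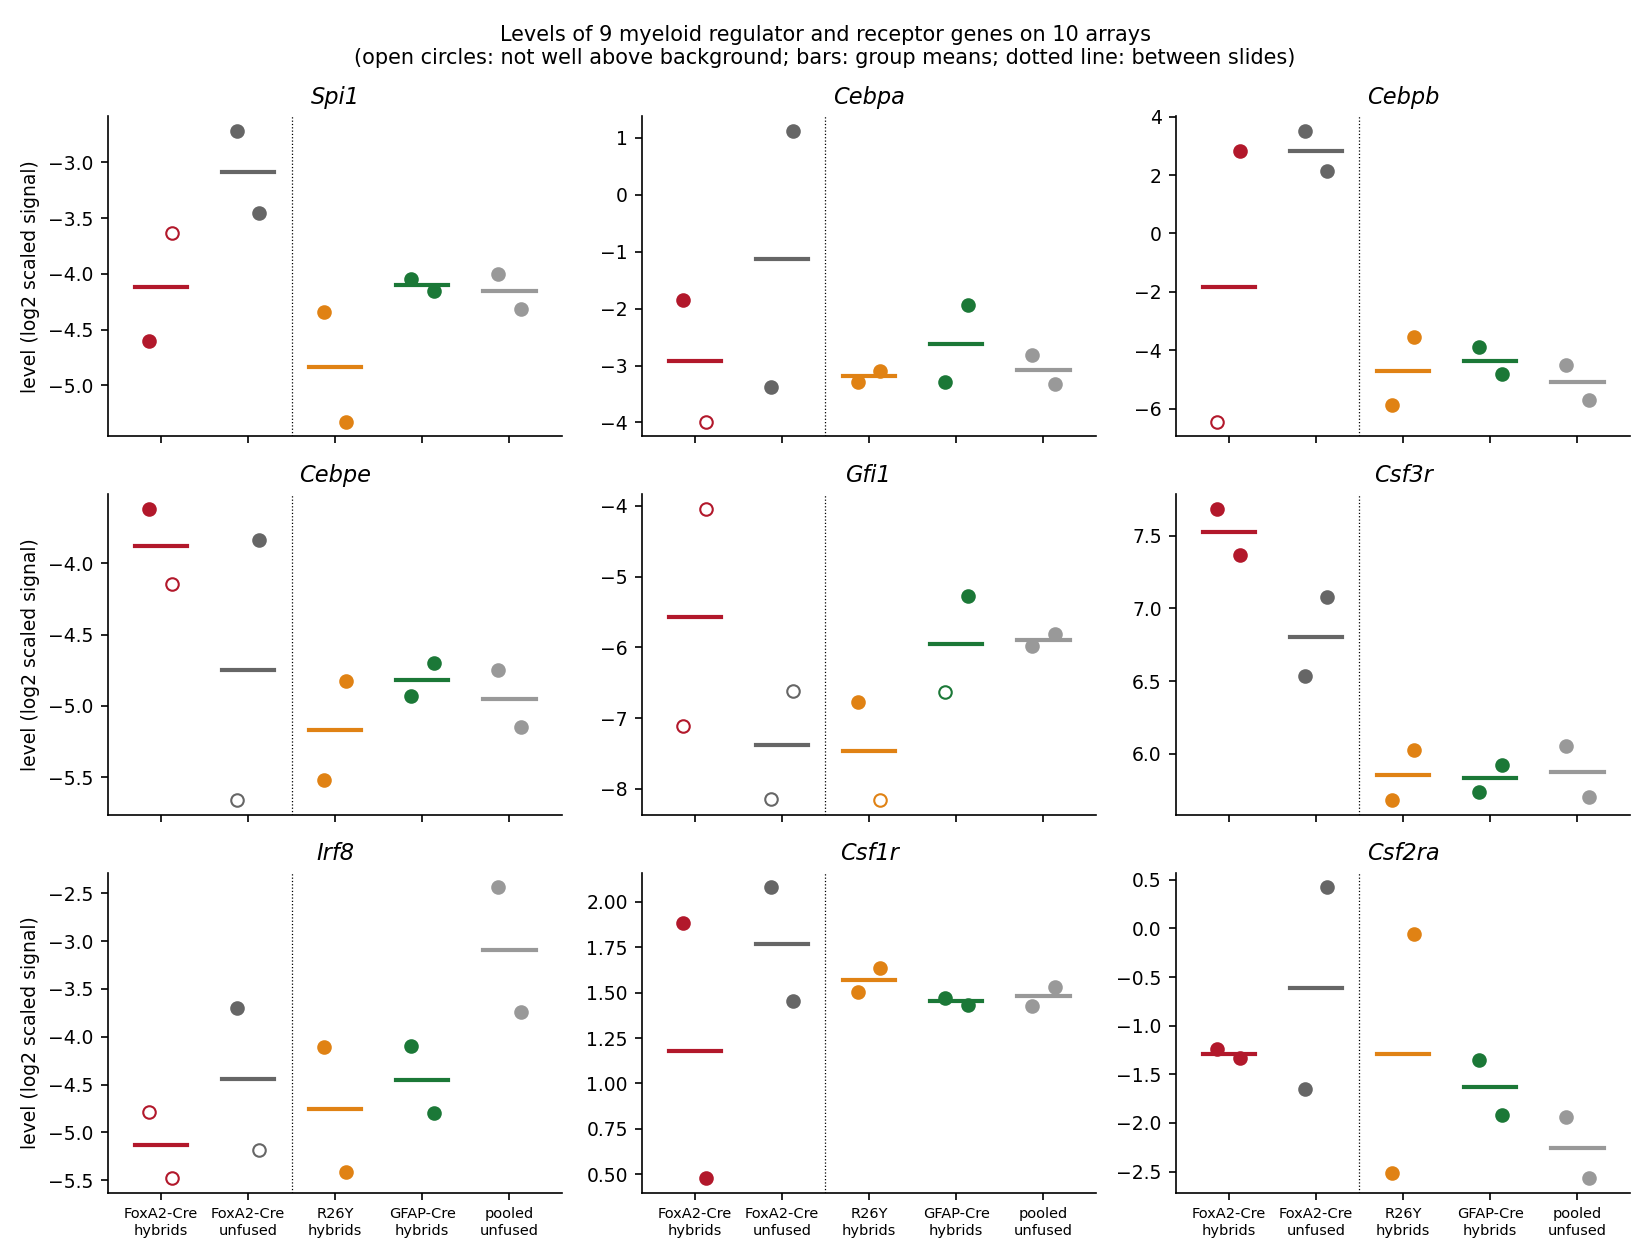
Levels of the 9 genes (log2 scaled signal, y axis) on each of the 10 arrays, with hybrids left of the unfused cells of their slide. Points are arrays, bars are group means of 2 arrays, and open circles mark arrays on which the probe was not well above background. Irf8 lies lower on the 4 hybrid arrays right of the dotted line (-5.42 to -4.10) than on the pooled unfused arrays (-3.74 and -2.44), and Cebpb differs between the FoxA2-Cre hybrid arrays (-6.45 and 2.81).

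Of the granulocytic regulators, Cebpe was at -3.62 and -4.14 in FoxA2-Cre hybrids and at -5.66 and -3.84 in FoxA2-Cre unfused cells, with 1 array of each group not well above background. It was at -5.52 and -4.83 in R26Y hybrids, at -4.93 and -4.70 in GFAP-Cre hybrids and at -4.75 and -5.15 in pooled unfused cells. Hybrids and unfused arrays overlapped on both slides. The difference over all hybrids was 0.35 (95% confidence interval -0.63 to 1.32, log2), limma adjusted p = 0.999.

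Gfi1 was the least detected member, well above background on 4 of 10 arrays. None of the 4 FoxA2-Cre arrays detected it, so no fold is given for that set. Levels on the other slide were -6.77 and -8.16 in R26Y hybrids, -6.63 and -5.27 in GFAP-Cre hybrids and -5.99 and -5.82 in pooled unfused cells. Both R26Y hybrid arrays lay below both pooled unfused arrays, the lower one not well above background. The difference of -1.56 ± 1.10 (log2, SE) had a limma adjusted p of 1.00.

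Csf3r was at 7.68 and 7.37 in FoxA2-Cre hybrids, against 6.53 and 7.08 in FoxA2-Cre unfused cells. The hybrid arrays lay above the unfused arrays, with a difference of 0.72 ± 0.49 (log2, SE) and a limma adjusted p of 0.683. The direction turned to -0.22 with quantile normalization, -0.41 in the authors' deposited matrix and -0.42 with normexp background correction. On the other slide it was at 5.68 and 6.03 in R26Y hybrids, 5.74 and 5.92 in GFAP-Cre hybrids, and 6.06 and 5.70 in pooled unfused cells, where all groups overlapped. The 15 probes of other genes that share at least 15 bases with the Csf3r probe had a median difference of 0.64 (range -2.42 to 1.40) in FoxA2-Cre hybrids, 0.18 in R26Y hybrids and 0.05 in GFAP-Cre hybrids. The Csf3r differences beside them were 0.72, -0.02 and -0.05. The part that shared sequence takes in the Csf3r signal was not tested.

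Of the monocytic regulators, Irf8 was at -4.11 and -5.42 in R26Y hybrids and at -4.10 and -4.80 in GFAP-Cre hybrids, against -2.44 and -3.74 in pooled unfused cells. All 6 arrays were well above background, and the 4 hybrid arrays lay below the 2 unfused arrays. In the FoxA2-Cre set Irf8 was at -4.79 and -5.48 in hybrids, neither well above background, and at -3.70 and -5.18 in unfused cells, of which the first was well above background. There the 4 arrays overlapped, and no fold is given because unfused replicate 2 was not well above background either. The log2 difference was 0.052 without FoxA2-Cre unfused replicate 1. The fitted differences were -0.69 ± 0.79 for FoxA2-Cre hybrids, -1.67 ± 0.79 for R26Y hybrids and -1.36 ± 0.79 for GFAP-Cre hybrids (log2, SE), and R26Y and GFAP-Cre hybrids share their unfused arrays. Over all hybrids the difference was -1.16 (95% confidence interval -2.25 to -0.08, log2), with a limma adjusted p of 0.999. It stayed negative in each of the 21 alternatives, between -1.49 and -0.56, and 3.12% of all genes had an unadjusted p under 0.05 in this comparison, as Irf8 did.

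Csf1r gave a different picture with each of its 3 probes, which lie on chromosome 18. The brightest, which represents the gene by rule, was at 1.88 and 0.48 in FoxA2-Cre hybrids and 2.08 and 1.45 in FoxA2-Cre unfused cells. On the other slide it hardly varied, at 1.50 and 1.63 in R26Y hybrids, 1.47 and 1.43 in GFAP-Cre hybrids, and 1.43 and 1.53 in pooled unfused cells. This probe holds 6 copies of the triplet CTG, and 0.242% of all probes hold as many.

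The probe across a splice junction was at -4.00 and -4.03 in GFAP-Cre hybrids, against -5.22 and -5.15 in pooled unfused cells, a difference of 1.17 ± 0.74 (log2, SE). The probe furthest downstream was at -0.28 and -1.14 in GFAP-Cre hybrids, against -1.37 and -2.29 in pooled unfused cells, a difference of 1.12 ± 1.61. By both of these probes GFAP-Cre hybrids lay above pooled unfused cells without overlap, while by the brightest the difference was -0.03 ± 0.60. Among all genes 19.9% lay higher without overlap in GFAP-Cre hybrids, and none of the 3 probes passed (limma adjusted p = 1.00 each). R26Y hybrids were at -5.17 and -5.34 by the junction probe and at -1.91 and -3.26 by the downstream probe, overlapping pooled unfused cells by both. In the FoxA2-Cre set the downstream probe ranged from -1.02 to 4.07 in hybrids and from -1.25 to 1.53 in unfused cells.

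**Figure D2:**
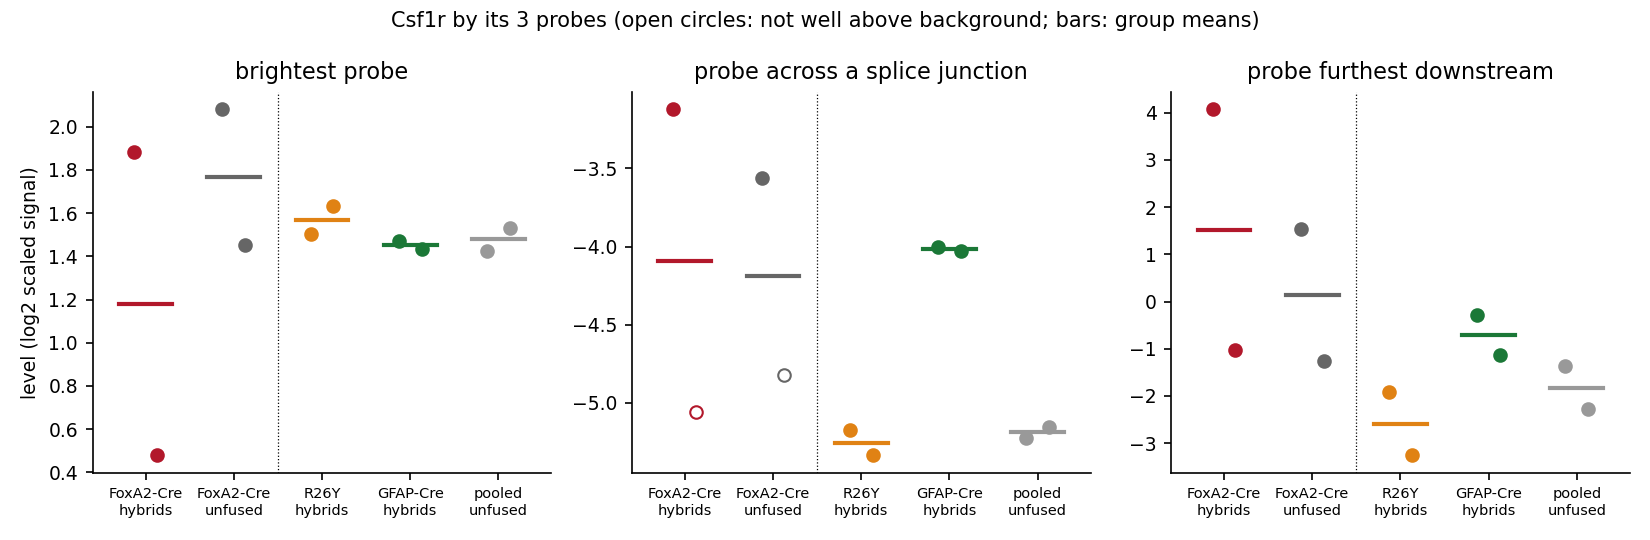
Levels of Csf1r by each of its 3 probes (log2 scaled signal, y axes of different range) on the 10 arrays. Points are arrays, bars are group means, and open circles are arrays not well above background. GFAP-Cre hybrids lie above pooled unfused cells by the junction probe (-4.00 and -4.03 against -5.22 and -5.15) and the downstream probe, and among them by the brightest.

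Markers of microglia, which carry Csf1r, stood beside this. In GFAP-Cre hybrids 10 of 11 tested microglia markers had a positive difference, with a median of 0.71 against 0.03 over all genes. In FoxA2-Cre hybrids 8 of 11 did, with a median of 0.85 against 0.36. For R26Y hybrids the count was 6 of 11, with a median of 0.09 against -0.26. The mean marker level was -2.66 and -2.13 in GFAP-Cre hybrids, against -3.41 and -3.24 in pooled unfused cells. In R26Y hybrids it was between -3.24 and -2.41, and it was -1.62 and -1.37 in FoxA2-Cre hybrids against -2.83 and -2.74 in FoxA2-Cre unfused cells. Of the 11 markers, 4 and 8 were well above background on these FoxA2-Cre hybrid arrays, and 6 and 8 on the FoxA2-Cre unfused arrays. None of these markers passed the test, and their part in the Csf1r values was not tested.

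Csf2ra, the GM-CSF receptor chain shared by granulocytes and macrophages, was well above background on all 10 arrays. It was at -1.24 and -1.33 in FoxA2-Cre hybrids and at -1.65 and 0.42 in FoxA2-Cre unfused cells, with overlap. R26Y hybrids were at -2.52 and -0.05 and GFAP-Cre hybrids at -1.35 and -1.91, against -1.94 and -2.57 in pooled unfused cells. GFAP-Cre hybrids lay above both unfused arrays, with a difference of 0.62 ± 0.96 (log2, SE) and a limma adjusted p of 1.00.

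With hybrids of all 3 kinds set against unfused cells, limma called 0 of the 9 genes (0% of all genes called), and 1 of the 9, Irf8, had an unadjusted p under 0.05. In FoxA2-Cre hybrids it called 0 of 9, against 0.53% of all genes, that is 17 higher (0.0527%) and 154 lower (0.478%), and no member had an unadjusted p under 0.05, where 8.64% of all genes did. In R26Y hybrids and in GFAP-Cre hybrids it called 0 of 9 and 0% of all genes, again with no member under 0.05 before adjustment, where 1.39% and 1.63% of all genes were. The members' median difference was -0.23 over all hybrids against 0.03 for all genes, -0.67 in FoxA2-Cre hybrids against 0.36, -0.12 in R26Y hybrids against -0.26, and 0.05 in GFAP-Cre hybrids against 0.03.

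Counted by arrays that do not overlap, Spi1 was lower and Csf3r higher in FoxA2-Cre hybrids, where 10.6% of all genes were lower and 26.5% higher in this way. Spi1, Gfi1 and Irf8 were lower in R26Y hybrids, where 19.6% of all genes were. In GFAP-Cre hybrids Irf8 was lower and Csf2ra higher, against 14.4% lower and 19.9% higher among all genes. No member had all its hybrid arrays on one side of the unfused arrays on both slides, as 1.55% of all genes did.

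**Figure D3:**
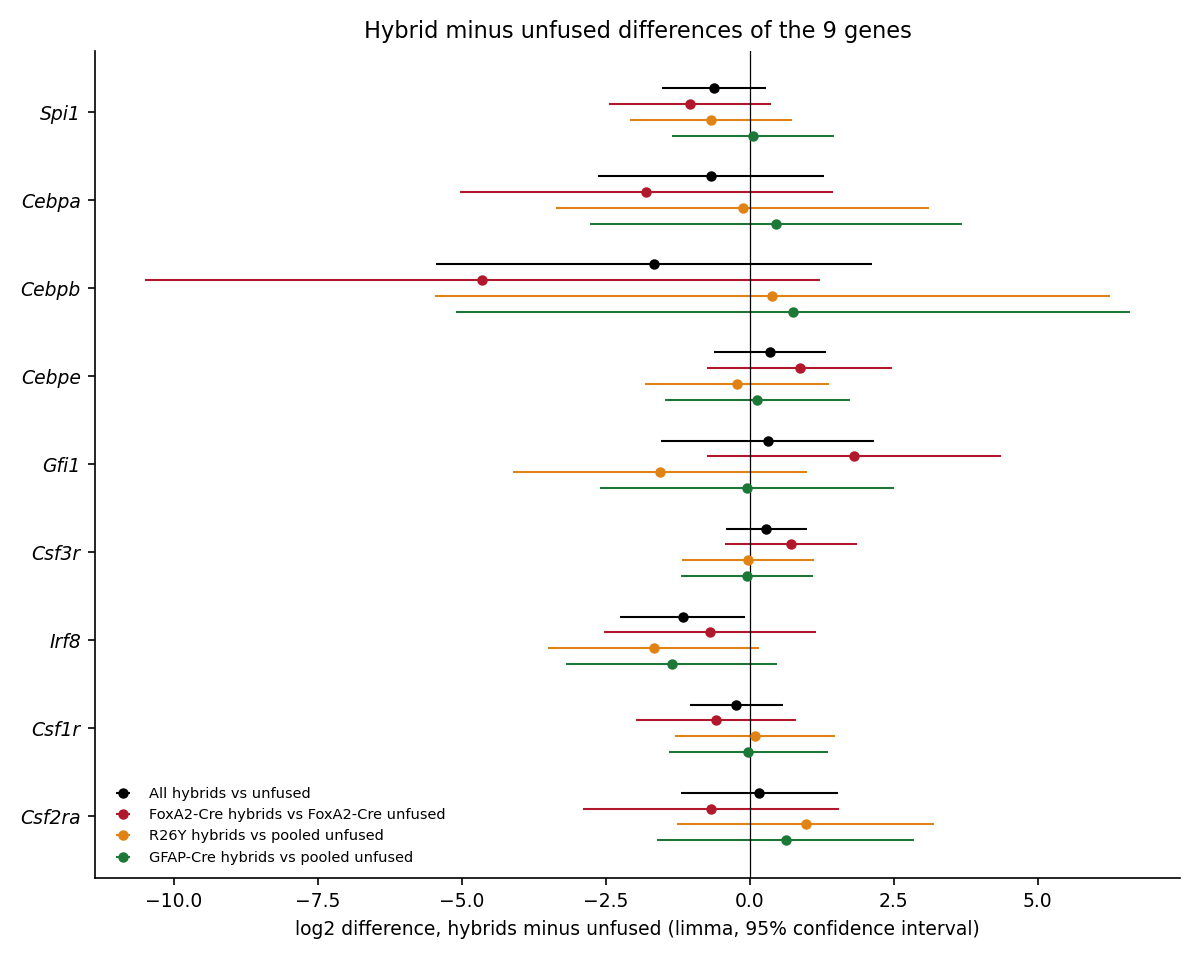
Differences between hybrids and unfused cells (log2, x axis) for the 9 genes in 4 comparisons, with limma 95% confidence intervals. The interval of Irf8 over all hybrids runs from -2.25 to -0.08, and that of Cebpb in FoxA2-Cre hybrids from -10.50 to 1.21. The Cebpb intervals of the 3 single hybrid groups have the same width, since these groups share 1 estimate of the spread.

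GFAP-Cre and R26Y hybrids, which share a slide, were also compared directly. Spi1 and Gfi1 were higher and Csf1r by its brightest probe lower in GFAP-Cre hybrids without overlap. Among all genes 20.2% were higher and 7.49% lower in this way. The other Csf1r probes went the opposite way, also without overlap. The junction probe was at -4.00 and -4.03 against -5.17 and -5.34, and the downstream probe at -0.28 and -1.14 against -1.91 and -3.26. Gfi1 was not well above background on GFAP-Cre hybrid replicate 1 and R26Y hybrid replicate 2. The differences were 0.73 ± 0.61 for Spi1, 1.51 ± 1.10 for Gfi1 and -0.12 ± 0.60 for Csf1r by its brightest probe (log2, SE). In this comparison limma called 0 of 9 members and 0% of all genes. The difference of the hybrid effect between the FoxA2-Cre set and the other set was called for 0 of 9 members and 0.0962% of all genes. It was widest for Cebpb, at -5.22 ± 3.34, and Gfi1, at 2.61 ± 1.45, both with a limma adjusted p of 0.836. Gfi1 was not detected on any FoxA2-Cre array, so its value has no measured level on that side.

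The balance of the granulocytic (Cebpe, Gfi1, Csf3r) and monocytic regulators (Irf8, Csf1r) was taken on each array, after each gene was set relative to the unfused mean of its slide. The granulocytic mean minus the monocytic mean was 0.88 and 2.67 on the FoxA2-Cre hybrid arrays, and -1.18 and 1.18 on the FoxA2-Cre unfused arrays. It was -0.05 and 0.42 in R26Y hybrids and 0.22 and 1.19 in GFAP-Cre hybrids, against -0.20 and 0.20 in pooled unfused cells. The 2 unfused values of a slide are equal and opposite by construction, so only the distance between them is informative. GFAP-Cre hybrids lay above both pooled unfused arrays, narrowly for 1 of them, and the other hybrid groups overlapped their unfused cells. Group means were 1.77 ± 1.27 in FoxA2-Cre hybrids, 0.19 ± 0.33 in R26Y hybrids and 0.70 ± 0.68 in GFAP-Cre hybrids (SD, n = 2 each).

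The means behind the balance differed between groups. In R26Y hybrids both means were below the unfused level, the granulocytic one at -0.54 and -0.66 and the monocytic one at -0.49 and -1.08. In GFAP-Cre hybrids the granulocytic mean was at -0.28 and 0.31 and the monocytic mean at -0.51 and -0.88. There Irf8 set the monocytic mean, since the brightest Csf1r probe was near 0. In FoxA2-Cre hybrids the granulocytic mean was at 0.76 and 1.50 and the monocytic mean at -0.12 and -1.16, but only 3 and 2 of the 5 genes were well above background on these arrays. Gfi1 and Irf8 were not among them, yet both enter these means: Gfi1 with 0.27 and 3.34 and Irf8 with -0.35 and -1.04, values below detection that have no measured level. Beside them Cebpe entered with 1.13 and 0.61, Csf3r with 0.88 and 0.56 and Csf1r with 0.12 and -1.29. Cebpe too was not well above background on FoxA2-Cre hybrid replicate 2. The FoxA2-Cre balance is thus no measured quantity for all its genes. It was 1.43 without Gfi1, 1.38 without Gfi1 and Irf8, 0.074 in the authors' deposited matrix and 0.29 with normexp background correction. The balance of R26Y hybrids was between -0.21 and 0.67 over 19 alternatives, and that of GFAP-Cre hybrids between 0.035 (normexp) and 1.19.

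**Figure D4:**
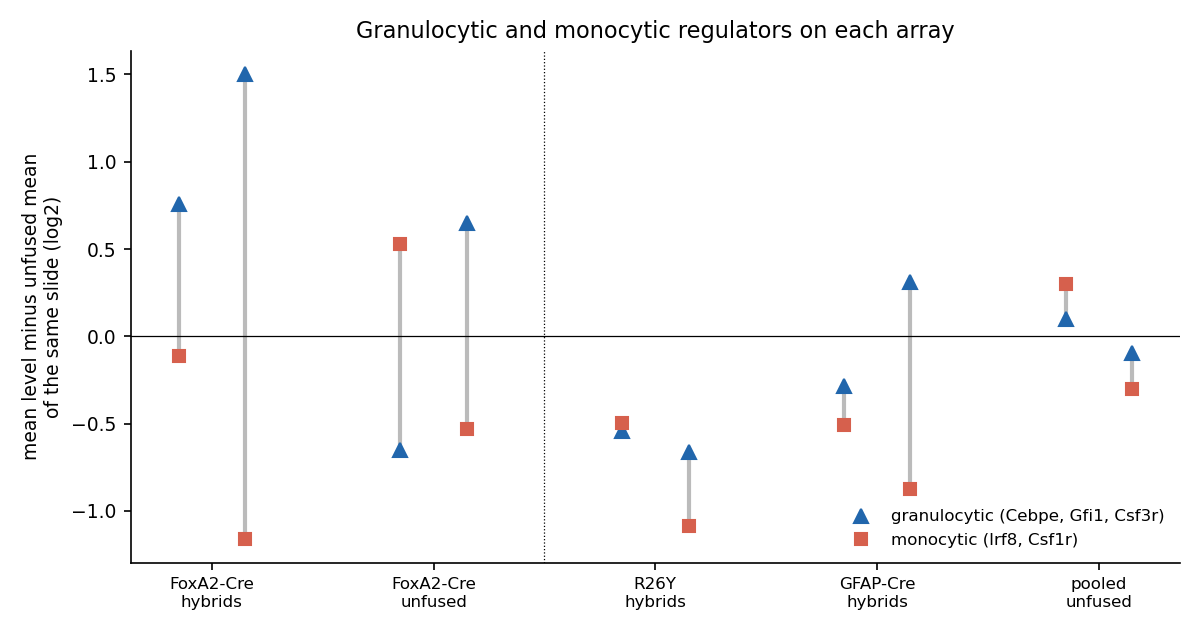
Mean level of the granulocytic regulators (triangles) and of the monocytic regulators (squares) on each array, relative to the unfused mean of the same slide (log2, y axis), with a grey line joining the pair of an array. On FoxA2-Cre hybrid arrays the granulocytic means (0.76 and 1.50) and the monocytic means (-0.12 and -1.16) include Gfi1 and Irf8, which were not well above background there. The 2 unfused arrays of a slide mirror each other by construction, since each gene is taken relative to their mean.

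The genes around these regulators were counted by list. Of 9 CSF ligand and beta chain genes, 0 passed in any comparison, with a median difference of 0.09 over all hybrids. The ligand genes with the smallest p were Il3, at -0.87 ± 0.40, and Csf3, which encodes G-CSF, at 0.78 ± 0.48 (log2, SE, limma adjusted p = 0.999 for both). Csf3 was not well above background on any FoxA2-Cre array, so that set adds no measured level to its difference. Of 21 tested other transcription factors, 0 passed, with a median of -0.01. Myb, a factor of progenitors, had a difference of -2.51 ± 1.20 over all hybrids (log2, SE), with a limma adjusted p of 0.999. It was not well above background on either FoxA2-Cre hybrid array or on R26Y hybrid replicate 2. The FoxA2-Cre unfused arrays were at -0.32 and -6.46, the latter not well above background. With an array left out the difference was between -3.50 and -1.45.

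Of 15 tested genes of CSF receptor signalling, 0 passed, with a median of 0.02 over all hybrids. Jak2, the kinase bound to the CSF receptor beta chain, had a difference of 1.80 ± 0.87 in FoxA2-Cre hybrids (log2, SE), with a limma adjusted p of 0.605. In that set Jak2 was well above background only on hybrid replicate 1, at -2.82, and the difference was 0.40 without that array. Stat3, a transcription factor that acts downstream of Csf3r, was detected on all 10 arrays and had a difference of -0.92 ± 0.61 in FoxA2-Cre hybrids, with a limma adjusted p of 0.678.

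The granulocytic effector genes, which code for granule and calcium-binding proteins, are given beside their regulators. Over all hybrids 14 of 19 had a negative difference, where 47.8% of all genes did, and their median was -1.09 against 0.03. The median was -0.87 in FoxA2-Cre hybrids, -1.31 in R26Y hybrids and -0.63 in GFAP-Cre hybrids. Of the 19, 6 and 3 were well above background on the FoxA2-Cre hybrid arrays, against 13 and 9 on the FoxA2-Cre unfused arrays. In FoxA2-Cre hybrids 2 of 19 passed, both lower, where 0.478% of all genes were called lower. These lists were drawn up with earlier results of these data known and are no independent evidence of a direction.

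Mpo, the peroxidase of primary granules, was at -6.77 and -5.66 in FoxA2-Cre hybrids, neither well above background, against 1.79 and 1.55 in FoxA2-Cre unfused cells. The unfused mean was 183-fold above the lowest level of any detected probe on the hybrid arrays, which is no strict lower bound. The limma adjusted p of the difference was 0.0258. S100a9, a calcium-binding protein of neutrophils and monocytes, was at -6.78 and -3.61 in FoxA2-Cre hybrids, neither well above background, against 3.20 and 3.61 in FoxA2-Cre unfused cells. The unfused mean was 339-fold above that lowest detected level, or above the gene's own level where higher, again no strict lower bound. The limma adjusted p of the difference was 0.0470. Both calls depend on the fit, although the direction stayed negative in each of 23 alternatives. The Mpo call was lost in 10 of them (adjusted p 0.0148 to 0.476 over all 23), and the S100a9 call in 15 (0.0223 to 0.406), among them the replicate number as a block, with an adjusted p of 0.103. Without FoxA2-Cre hybrid replicate 1 the limma adjusted p was 0.0848 for Mpo and 0.112 for S100a9, and the 4 FoxA2-Cre arrays alone gave 0.131 and 0.149. The mean of the Mpo probes gave a difference of -3.06, against -7.89 (log2) by the brightest. Camp and Lcn2, secondary granule genes of the kind Cebpe is known to drive, had differences of -6.17 ± 1.02 and -3.82 ± 0.77 (log2, SE) there. They did not pass, with limma adjusted p of 0.0586 and 0.133. Camp did pass in the authors' matrix, with the percentile over all spots and by the mean of its probes (limma adjusted p 0.0223, 0.0419 and 0.0397). Camp was not well above background on FoxA2-Cre hybrid replicate 2.

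The difference of Cebpe in the same comparison was 0.87 ± 0.69 and that of Csf3r 0.72 ± 0.49. On the other slide Mpo was at -5.85 and -7.35 in R26Y hybrids and -6.03 and -6.27 in GFAP-Cre hybrids, against -0.70 and -3.89 in pooled unfused cells. There too the 4 hybrid arrays were all below the unfused arrays, as they were for Irf8. Neutrophil markers, which share members with this list, had a mean level of -5.60 to -4.28 in FoxA2-Cre hybrids against -2.37 to -1.78 in FoxA2-Cre unfused cells. They were at -5.71 to -4.26 in R26Y hybrids and -4.69 to -3.94 in GFAP-Cre hybrids, against -3.30 to -2.71 in pooled unfused cells. Of the 10 markers, 3 and 1 were well above background on the FoxA2-Cre hybrid arrays and 8 and 6 on the FoxA2-Cre unfused arrays. Each array of the other slide had 7 to 10. Their part in the values of the regulators was not tested.

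The monocytic and macrophage effector genes had no common direction. Of 19 tested, 0 passed, 8 were higher and 11 lower over all hybrids, and their median was -0.10. Cd14, a co-receptor for lipopolysaccharide, had a difference of 1.01 ± 0.42 and Cybb, the phagocyte oxidase subunit, a difference of -2.24 ± 1.12 (log2, SE, limma adjusted p = 0.999 for both). On FoxA2-Cre unfused replicate 2 Cybb was at 2.54, and its difference was -0.94 without that array. Ctss, a lysosomal protease of macrophages and microglia, was at 4.24 and 4.78 in FoxA2-Cre hybrids and at 3.76 and -6.99 in FoxA2-Cre unfused cells, so that its difference of 6.13 ± 3.05 there rests on 1 unfused array and was 0.75 without FoxA2-Cre unfused replicate 2.

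**Figure D5:**
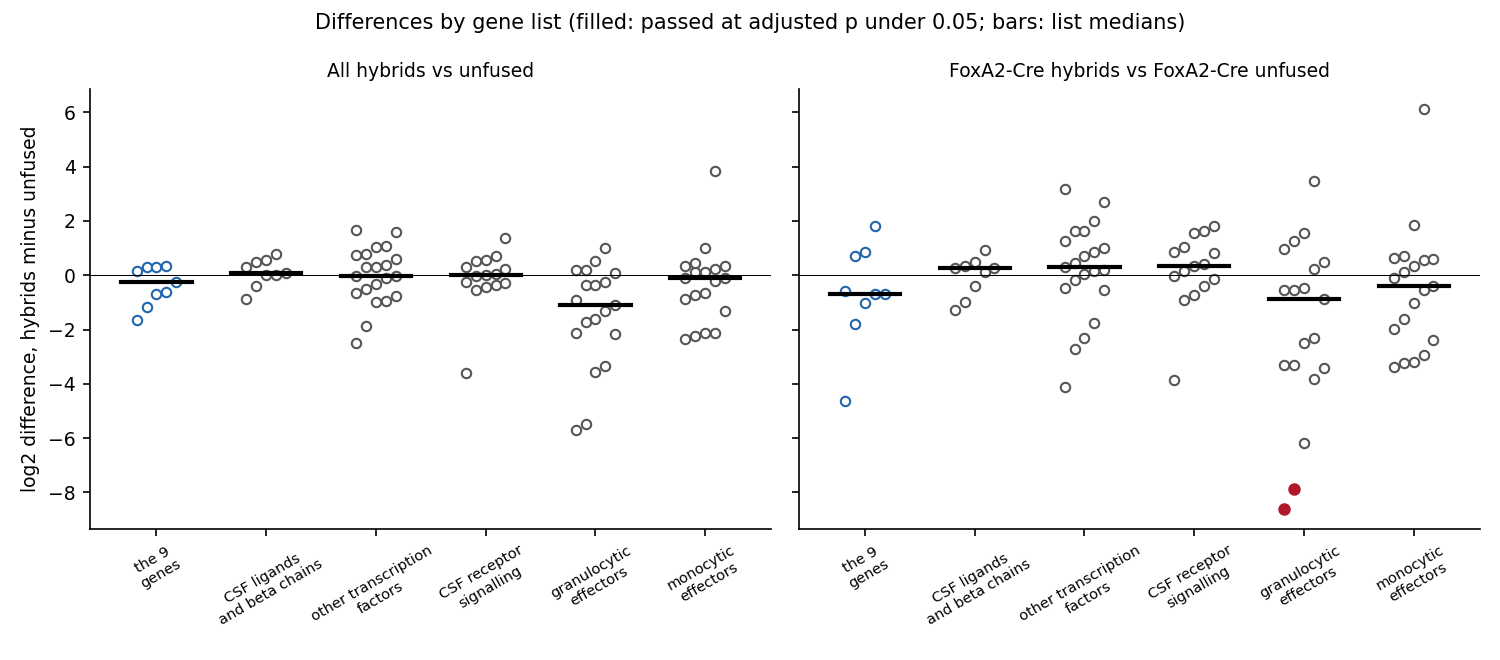
Differences between hybrids and unfused cells (log2, y axis) of each gene, by list, over all hybrids (left) and in FoxA2-Cre hybrids (right). Filled points passed at an adjusted p under 0.05 and bars are list medians. Of the granulocytic effectors, 2 passed in FoxA2-Cre hybrids, and none of the 9 regulators and receptors did.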

How the data were processed

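The measured material was amplified RNA of sorted cells, hybridised as Cy3-labelled cDNA to 1-colour Agilent mouse 8x60K arrays, 10 arrays in 5 groups of 2. The authors deposited 1 scanner output per array, written by Agilent Feature Extraction 10.7.3.1, per the file headers. Its columns of processed, mean and background signal hold intensities, as deposited. The tables also hold marks of 0 or 1 for each spot, of which those for detection above background and for uneven spots entered here. A series matrix with log2 values was likewise deposited. Its normalization is not given in the sources used here, and it served as an alternative.

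The members and lists were chosen with earlier results of these data known. From the log2 processed signal each array's 75th percentile was subtracted, taken among the 9510 spots that every array detected. Uneven spots were left out, spots of a probe were averaged, probes had to be detected on at least 2 arrays, and the brightest probe on average stood for a gene. Names came from the files, updated by RefSeq accession for 27428 probes, and coordinates are those of the files on build mm9. All samples were matched to files, and 0 spots were saturated.

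Comparisons used limma 3.58.1 in R 4.3.3 with two-sided moderated tests, Benjamini-Hochberg adjustment over 32236 genes and a threshold of 0.05. The test of all hybrids had a term for recipient set and 7 residual degrees of freedom, and single hybrid groups were contrasts of 5 group means with 5. The number of arrays limits the precision. The fit was tested on simulated data with 200 changed genes. A fold against a group with no array above background was computed against the lowest level of any detected probe on each array. The gene's own level was used where it was higher. Some probes above that lowest level were not well above background, so such a fold is no strict lower bound. The members were named by gene name, and beside them up to 4 genes of a list with the smallest p in the comparison of all hybrids or of FoxA2-Cre hybrids. Probe sequences were compared with those of all other probes on both strands. Sequences come from the array files. Some genes of the lists are counted but not reported by name here.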

Additional observations from a re-analysis of the deposited data

How the results depend on the processing

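The alternatives were quantile normalization, the 75th percentile over all spots, the authors' deposited matrix, normexp background correction with quantile normalization, other filters on dim probes, the mean of a gene's probes, array weights, blocks for replicate number and for row or column on the slide, arrays of 1 slide alone, no recipient set term, and each array left out. The other Csf1r probes, the balance without Csf3r, without Gfi1 or without Gfi1 and Irf8, and the removal of probes that share 20 bases were added after seeing the data. The cause was not tested for any of the moves below. Over genes as a whole replicate numbers did not pair the samples (correlations of same-numbered deviations of -0.07 to 0.07 across genes). The fit with the replicate number as a block called 106 genes in FoxA2-Cre hybrids, in place of 171, and 0 for the difference between recipient sets, in place of 31. Irf8, however, was higher in replicate 1 than in replicate 2 in every group. That block took its SE over all hybrids from 0.48 to 0.34, with a limma adjusted p of 0.999.

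Irf8 kept its direction over all hybrids, in R26Y hybrids (-2.32 to -0.69) and in GFAP-Cre hybrids (-2.01 to -0.70) under each alternative. In FoxA2-Cre hybrids it was -1.44 to 0.052 with an array left out, and Spi1 was between -1.52 and -0.44 there under each alternative. FoxA2-Cre genes called numbered 0 with a row block, a column block or the FoxA2-Cre arrays alone, 102 with array weights, 60 without probes that share 20 bases, and 61 to 559 with an array left out, the most without FoxA2-Cre unfused replicate 2. R26Y hybrids had 0 to 2316 genes called and GFAP-Cre against R26Y hybrids 0 to 2180 with an array left out, in both cases only without R26Y hybrid replicate 1. For the difference between recipient sets, 10 genes were called with quantile normalization, 56 in the authors' matrix, 0 with a row or column block, 5 without probes that share 20 bases, and 0 to 156 with an array left out. The balance of granulocytic over monocytic regulators was 0.29 (normexp) and 0.074 (authors' matrix) in FoxA2-Cre hybrids and 0.55 (quantile), 0.61 (Csf1r by its downstream probe), 0.67 (without Gfi1), -0.10 (without Csf3r) and -0.21 (without Gfi1 and Irf8) in R26Y hybrids. In GFAP-Cre hybrids it was 0.035 (normexp), 0.26 (authors' matrix), 0.31 (mean of probes), 0.10 (junction probe), 0.13 (downstream probe) and 0.071 (without Gfi1 and Irf8). With an array left out it was 0.59 to 2.95 in FoxA2-Cre hybrids, -0.048 to 0.42 in R26Y hybrids and 0.22 to 1.19 in GFAP-Cre hybrids.

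These differences turned sign over all hybrids (log2). Array weights gave -0.033 for Cebpe, -0.29 for Gfi1, 0.060 for Il34 and -0.13 for Jak2. The authors' matrix gave -0.038 for Gfi1, 0.062 for Csf1r, -0.29 for Csf3r and 0.041 for Il34. Normexp gave 0.097 for Csf1r and -0.32 for Csf3r, quantile normalization -0.21 for Csf3r, and a column block -0.0071 for Csf2ra. Csf1r was 0.27 by the mean of its probes, 0.36 by the junction probe and 0.70 by the downstream probe.

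In FoxA2-Cre hybrids Csf1r was 0.30 by the mean of its probes, 0.099 by the junction probe and 1.39 by the downstream probe. Csf2ra was 0.22 in the authors' matrix and 0.096 with normexp. Csf3r was -0.22 (quantile), -0.41 (authors' matrix) and -0.42 (normexp). Csf2 was -0.0069 (authors' matrix), -0.017 (normexp) and -0.41 (row block), Csf3 -0.033 (row block), and Stat5a -0.078 (authors' matrix) and -0.12 (normexp). Neither Csf3 nor Stat5a was well above background on any FoxA2-Cre array.

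In R26Y hybrids Cebpa was 0.18 (quantile), 0.21 (all spots), 0.18 (authors' matrix), 0.14 (normexp) and 0.50 (column block). Cebpe was 0.25, 0.11, 0.24, 0.16 and 0.079 under the same 5 settings. Csf1r was -0.37 (quantile), -0.056 (authors' matrix), -0.082 (normexp), -0.24 (mean of probes), -0.32 (column block), -0.065 (junction probe) and -0.76 (downstream probe). Csf3r was 0.31 (all spots), 0.016 (row block) and 0.14 (column block). In GFAP-Cre hybrids Spi1 was -0.094 (authors' matrix), -0.063 (normexp) and -0.17 (row block), Gfi1 2.54 and Csf3r 0.19 (column block). Csf1r was 0.44 (authors' matrix), 0.56 (normexp), 0.75 (mean of probes), 0.013 (row block), 1.17 (junction probe) and 1.12 (downstream probe) there.

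With an array left out, ranges that crossed 0 were, over all hybrids, -1.23 to 0.26 for Cebpa, -2.71 to 0.38 for Cebpb, -0.045 to 0.56 for Cebpe, -0.41 to 0.059 for Csf1r, -0.16 to 0.65 for Csf2ra, -0.45 to 0.68 for Gfi1 and -0.10 to 0.89 for Jak2. In FoxA2-Cre hybrids they were -4.04 to 0.45 for Cebpa, -0.045 to 1.78 for Cebpe, -1.29 to 0.12 for Csf1r, -1.71 to 0.36 for Csf2ra and -0.18 to 2.04 for Csf3. In R26Y hybrids they were -0.38 to 0.14 for Cebpa, -0.77 to 1.56 for Cebpb, -0.57 to 0.12 for Cebpe, -0.26 to 2.20 for Csf2ra and -0.20 to 0.15 for Csf3r. In GFAP-Cre hybrids they were -0.22 to 1.13 for Cebpa, -0.066 to 0.33 for Cebpe, -0.081 to 0.025 for Csf1r, -0.22 to 0.13 for Csf3r, -0.73 to 0.63 for Gfi1 and -0.10 to 0.21 for Spi1. Where an array was left out, its lone partner was assumed to vary like the other groups.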

Other observations

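Across the 10 arrays, with the mean of each slide removed, the gene whose pattern was most like that of Irf8 was Gna12 (Pearson's r = 0.93), and for Cebpe it was Nrsn2 (r = 0.968), among 17489 genes well above background on at least 5 arrays. For Gfi1 it was Gm8541 (r = 0.984), for Csf3r Ncoa5 (r = 0.967) and for the brightest Csf1r probe Zfp72 (r = 0.993). Gfi1 itself was well above background on only 4 of the 10 arrays and on no FoxA2-Cre array, so its pattern holds values below detection. The arrays of a slide share a slide, a scaling and the depth of detection, and the highest of so many correlations over 10 arrays is a description only.

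Replicates of the 9 genes differed by a median of 0.97 log2 units in FoxA2-Cre hybrids and 1.49 in FoxA2-Cre unfused cells, and by 0.99 in R26Y hybrids, 0.56 in GFAP-Cre hybrids and 0.40 in pooled unfused cells. The widest gap within each group was that of Cebpb (9.26) in FoxA2-Cre hybrids, Cebpa (4.49) in FoxA2-Cre unfused cells, Csf2ra (2.46) in R26Y hybrids, Gfi1 (1.36) in GFAP-Cre hybrids and Irf8 (1.31) in pooled unfused cells. Over all genes the median gap was 1.00 in FoxA2-Cre hybrids and 0.89 in FoxA2-Cre unfused cells, and 1.07, 0.52 and 0.34 in R26Y hybrids, GFAP-Cre hybrids and pooled unfused cells.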
